A study of Mus musculus with 2 samples.

Results

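Elastic fibres give connective tissue its recoil, and 10 genes for their parts were followed here through single-cell libraries of mouse embryonic limb muscle tissue. The genes were the fibrillins Fbn1 and Fbn2, the microfibril-associated genes Mfap2, Mfap5 and Mfap4, the elastin gene Eln, the interface gene Emilin1, and the fibulins Fbln1, Fbln2 and Fbln5. They were taken by gene symbol from the 32285 genes listed in both matrices, and all 10 were found. The set was chosen by gene name, on the basis of E15.5 over E12.5 levels seen earlier in these data, so that the values below are a description and none was tested.

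An elastic fibre consists of a core of crosslinked elastin within a sheath of microfibrils, the thin filaments that fibrillins form. Microfibrils also occur without elastin, as in tendon and around muscle fibres, where they carry load and hold latent TGF-beta in the matrix through binding proteins. Small glycoproteins bind along the microfibril, fibulins and EMILIN-1 help to join elastin to it, and lysyl oxidases crosslink the elastin.

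Cells came from limb skeletal muscles of wild-type (WT) C57Bl/6 mouse embryos at the embryonic ages E12.5 or E15.5, counted in days, with 1 library per age. Forelimbs and hindlimbs entered the same library, after mechanical and trypsin dissociation. The number and sex of the embryos in each library are not given in the sources used here. RNA molecules were counted as UMIs, molecular tags that count each captured molecule once, from 3-prime ends of transcripts in droplets.

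The E12.5 library held 12941 cell barcodes and 34907675 UMIs, and the E15.5 library 5780 barcodes and 46966083 UMIs. After filtering, 11001 cells with a median of 2322 UMIs and 3916 cells with a median of 9297 UMIs remained. The libraries shared 17 barcode sequences, 11 of them among the kept cells. Cell classes were named from marker genes and are called "-like". Cells of the labelled tissue were a minority: muscle-like cells, with 13 and 12 of 13 muscle markers at least 2-fold above the other cells, were 5.44% of cells (E12.5) and 10.1% (E15.5). Connective tissue-like cells were 65.3% (7184 cells) and 43.2% (1693 cells), with 9 and 11 of 12 markers that far above the other cells. Unnamed clusters held 0.409% of cells (E12.5) and 17.0% (E15.5). Levels are given in CPM, a gene's UMIs in a class scaled to a class total of 1000000 UMIs. Because each age was 1 library, age and library cannot be told apart, and the 95% intervals cover counting error only. Because UMI levels are not adjusted between genes, levels are compared for 1 gene across cells and not between genes.

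In connective tissue-like cells, 9 of the 10 genes had a higher level at E15.5 than at E12.5, and 5 were at least 2-fold higher: Mfap5, Eln, Fbn1, Mfap2 and Fbln5. None was at least 2-fold lower. Of all 15115 genes with at least 20 UMIs in these cells, 10.7% were at least 2-fold higher and 24.4% at least 2-fold lower. The median log2 ratio (E15.5 over E12.5) was 1.03 over the 10 genes and -0.37 over all genes. Measured against that median gene, 6 of the 10 were at least 2-fold higher, Fbln2 being the addition, beside 16.5% of all genes, with 15.2% at least 2-fold lower. Nothing is read from these counts, since the genes were chosen with this difference known.

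**Figure D1:**
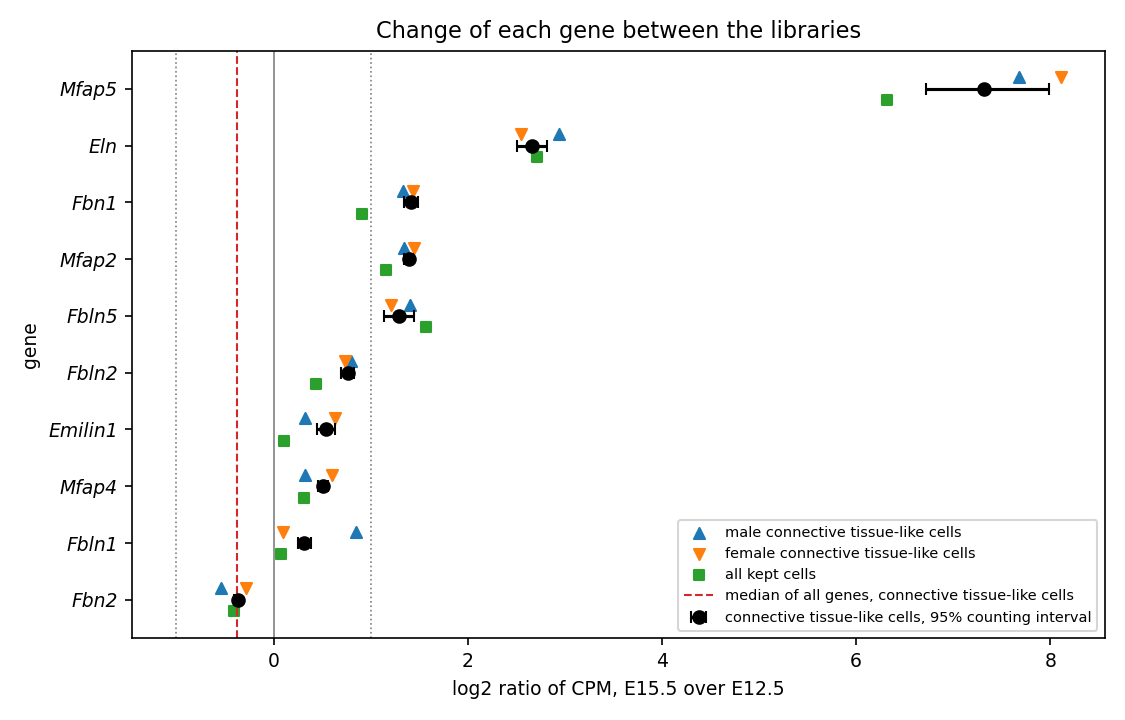
Log2 ratio of the level in CPM (E15.5 over E12.5) for the 10 genes: black points are connective tissue-like cells with 95% counting intervals, triangles their male and female cells, squares all kept cells. Dotted lines mark 2-fold, the dashed line the median of all genes at -0.37; Mfap5 lies farthest right at 7.31 and Fbn2 is on the dashed line.

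Fibrillins form the backbone of the microfibril, and Fbn2 is the form typical of embryonic tissue. The Fbn2 level was 669 CPM (E12.5) and 517 CPM (E15.5) in connective tissue-like cells, a log2 ratio of -0.37 (-0.41 to -0.33). This difference equals that of the median gene, since the Fbn2 ratio relative to the median gene was 0.0046. The Fbn1 level was 110 CPM (E12.5) and 293 CPM (E15.5), a log2 ratio of 1.41 (1.34 to 1.49), and relative to the median gene it was 1.79. Over all kept cells, without classes, the Fbn1 level was 94.1 CPM and 177 CPM, a log2 ratio of 0.91 that is under 2-fold.

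The share of Fbn1 among Fbn1 and Fbn2 UMIs sets the 2 fibrillins against each other without the class total. It compares captured molecules, which need not equal the ratio of the proteins. In connective tissue-like cells this share was 14.1% of 13735 fibrillin UMIs (E12.5) and 36.2% of 14966 (E15.5), which is 22.0 percentage points more (21.1 to 23.0). The difference was between 14.0 and 20.9 points in the 9 alternative settings where it moved beyond its counting interval. Each E15.5 connective tissue-like cluster except cluster 16 had a share above those of all 14 such clusters at E12.5. The E12.5 clusters ran from 6.87% to 21.2% with a median of 12.9%, and the 8 E15.5 clusters from 13.8% in cluster 16 to 53.9% in cluster 21.

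The share moved differently by cell class. Muscle-like cells had 17.0% (E12.5) and 35.2% (E15.5), and endothelial-like cells 13.9% (10 of 72 UMIs) and 54.6% (95 of 174 UMIs). Tenocyte-like cells had 11.4% and 19.5%, a difference of 8.09 points (4.85 to 11.4). Unlike clusters held that class at the 2 ages: at E12.5 it was cluster 7, led by Dcn, Kera and Grem1, and at E15.5 clusters 10 and 23, both led by Tnmd, Scx and Cilp. Its ratios below compare those clusters. Chondrocyte-like cells had 15.8% and 10.3%, a difference of -5.45 points (-7.48 to -3.52). At E15.5 the Fbn1 share was thus lowest in the chondrocyte-like and tenocyte-like classes. Fbn2 UMIs also outnumbered Fbn1 UMIs in the connective tissue-like, muscle-like, mural-like (Fbn1 share 40.8%) and Schwann-like (25.2%) classes. Connective tissue-like cluster 16, at 13.8%, lay below the tenocyte-like clusters 10 and 23, at 18.3% and 22.3%. The UMI counts of the 2 fibrillins were closer together in endothelial-like cluster 9 (Fbn1 share 56.0%) and in some connective tissue-like clusters, such as cluster 8 (47.9%) and cluster 21 (53.9%). After thinning to 2000 UMIs, the share of endothelial-like cells with an Fbn1 UMI differed by 2.02 points between the ages (-3.29 to 7.34). At 1000 UMIs it differed by 3.95 points (0.36 to 8.34). The E12.5 Fbn2 level of endothelial-like cells was 100 CPM (62 UMIs). It was close to the 94.4 CPM (8 UMIs) of immune-like cells, which should lack most of these genes. At E15.5 the levels were 38.3 CPM in endothelial-like and 6.43 CPM in immune-like cells. The part of free RNA in the endothelial-like share was not tested.

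**Figure D2:**
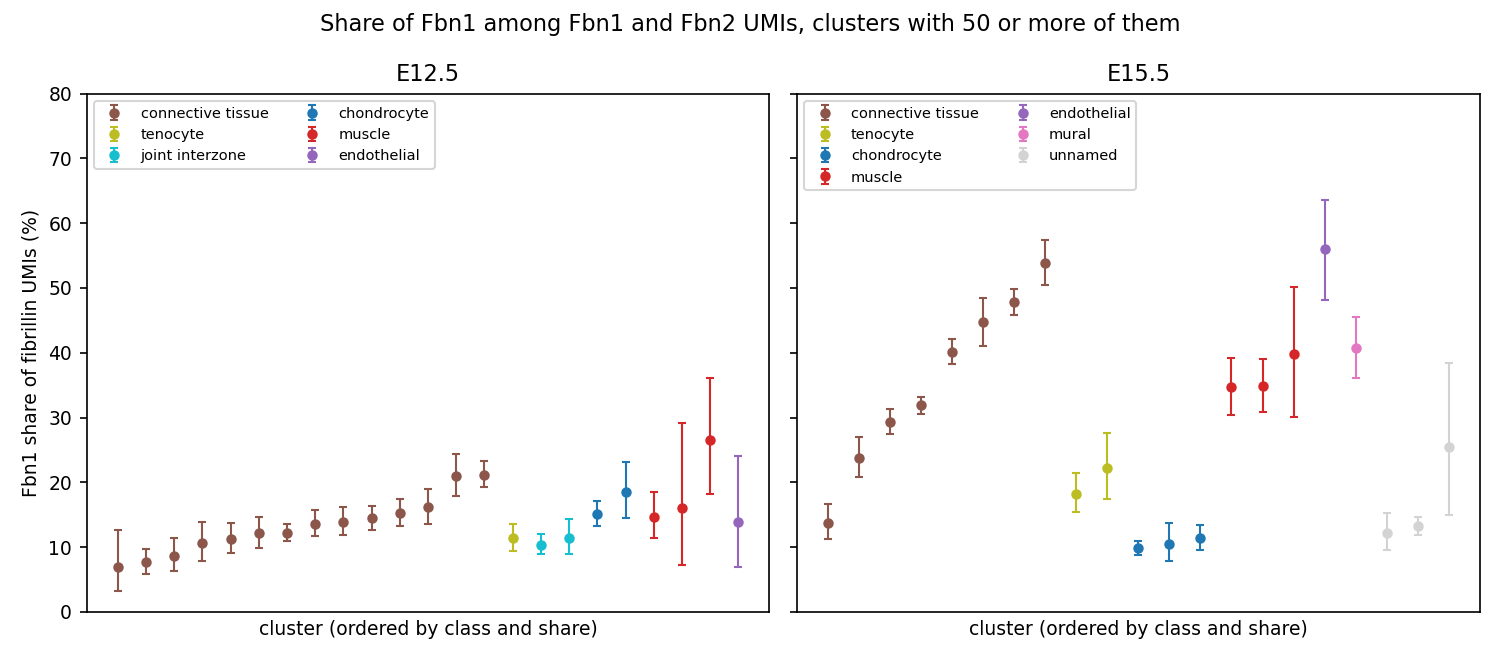
Share of Fbn1 among Fbn1 and Fbn2 UMIs (%) by library, in clusters with at least 50 such UMIs and 20 cells. Points are clusters coloured by class, and bars are 95% counting intervals. The classes drawn are connective tissue, tenocyte, joint interzone, chondrocyte, muscle, endothelial, mural and unnamed, so that Schwann-like cluster 15 (E15.5) is left out. The connective tissue-like clusters span 6.87% to 21.2% (E12.5) and 13.8% to 53.9% (E15.5), and the chondrocyte-like clusters lie near 10.3% at E15.5.

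Mfap2 and Mfap5 encode MAGP-1 and MAGP-2, small glycoproteins that bind fibrillin. Mfap5 had 22 UMIs in 7184 connective tissue-like cells at E12.5, a level of 1.25 CPM. At E15.5 it had 3667 UMIs in 1693 such cells, a level of 199 CPM. The log2 ratio was 7.31 (6.71 to 7.99), above that of 99.8% of all genes. Mfap2 was already plentiful at the younger age, with a level of 249 CPM (E12.5) and 652 CPM (E15.5), a log2 ratio of 1.39 (1.34 to 1.44). Mfap5 molecules were 0.499% of Mfap2 and Mfap5 UMIs in these cells (E12.5) and 23.4% (E15.5).

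Among named classes of at least 20 cells at E15.5, the Mfap5 level of 199 CPM in connective tissue-like cells was followed by 11.5 CPM in chondrocyte-like and 8.43 CPM in mural-like cells, 2 values with overlapping intervals. The 665 unnamed cells had 38.9 CPM (137 UMIs). Tenocyte-like cells had 3 Mfap5 UMIs, 1.93 CPM. Their Mfap2 level was the highest of the named classes at both ages, 317 CPM (E12.5) and 863 CPM (E15.5). At E15.5 these cells thus carried Mfap2 with hardly any Mfap5. At E12.5 this did not set them apart, since Mfap5 was at 3.54 CPM (4 UMIs) in them and at 1.25 CPM in connective tissue-like cells.

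Mfap4 encodes a fibrinogen-related glycoprotein that binds elastin and fibrillin. Its connective tissue-like level was 253 CPM (E12.5) and 360 CPM (E15.5), a log2 ratio of 0.51 (0.45 to 0.56). Tenocyte-like cells had 285 CPM (E12.5) and 904 CPM (E15.5), a log2 ratio of 1.67 (1.49 to 1.85). At E12.5 the levels of these classes thus lay close together, and the E15.5 levels did not. Schwann-like cells listed 0 Mfap4 UMIs at E15.5, which allows a level of up to 3.14 CPM, and endothelial-like cells had 12 UMIs (E12.5) and 3 (E15.5).

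Eln encodes tropoelastin, the soluble unit of elastin. Its connective tissue-like level was 22.8 CPM (E12.5) and 144 CPM (E15.5), a log2 ratio of 2.66 (2.51 to 2.81). Eln was also higher at E15.5 in tenocyte-like cells (23.0 CPM and 125 CPM) and in chondrocyte-like cells (14.4 CPM and 267 CPM). Endothelial-like cells held 1 Eln UMI (E12.5) and 186 (E15.5), levels of 1.62 CPM and 90.1 CPM, for a ratio of 55.6 with a log2 interval of 3.30 to 11.1. The 186 UMIs came from 14 of 153 cells, and after thinning to 2000 UMIs the share of cells with an Eln UMI differed by 2.96 points, with an interval of -1.44 to 7.82 that includes 0. Mural-like cells, the contractile cells of vessel walls, were named at E15.5 only, with an Eln level of 214 CPM. Muscle-like cells stayed low, at 2.43 CPM and 15.3 CPM.

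EMILIN-1, the product of Emilin1, sits where elastin meets the microfibril. Its connective tissue-like level was 91.7 CPM (E12.5) and 134 CPM (E15.5), a log2 ratio of 0.54 (0.45 to 0.63). Tenocyte-like cells had 99.0 CPM and 201 CPM. In immune-like cells its level was 23.6 CPM (2 UMIs) (E12.5) and 29.6 CPM (23 UMIs) (E15.5), where its interval overlapped those of the muscle-like, mural-like and endothelial-like levels. Mast-like cells at E15.5 had an Emilin1 level of 23.1 CPM.

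Fibulins bind microfibrils, elastin and basement membranes, and fibulin-5, the product of Fbln5, helps elastin to assemble on microfibrils. The Fbln5 level in connective tissue-like cells was 26.6 CPM (E12.5) and 65.0 CPM (E15.5), a log2 ratio of 1.29 (1.13 to 1.44). For Fbln2 the level was 165 CPM and 280 CPM, a log2 ratio of 0.76 (0.70 to 0.83). The Fbln1 level was 184 CPM and 229 CPM, a log2 ratio of 0.31 (0.25 to 0.38). The Fbln1 ratio was 0.85 in the male cells and 0.096 in the female cells of this class, and all 10 genes had the same direction in both sexes.

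The fibulins divided the cell classes in their own way. In tenocyte-like cells the Fbln1 level was 335 CPM (E12.5) and 138 CPM (E15.5), a log2 ratio of -1.28 (-1.53 to -1.03). That direction depended on which cells formed the class: with at least 1000 genes required per cell, the Fbln1 ratio was 1.12. In endothelial-like cells Fbln1 made up 75.0% of the UMIs of the 3 fibulins at E12.5 (33 of 44) and 10.4% at E15.5 (65 of 625), while Fbln2 made up 20.5% and 65.6%. The Fbln2 level in these cells was 14.6 CPM and 199 CPM, a log2 ratio of 3.77 (2.83 to 4.91), and their Fbln5 level was 3.24 CPM and 72.7 CPM, a log2 ratio of 4.49 (2.61 to 7.55). At E15.5, 46 of the 153 cells held an Fbln2 UMI and 21 an Fbln5 UMI, and the thinned shares differed by 7.94 points (0.92 to 15.1) and 1.34 points (-3.35 to 6.04). In Schwann-like cells Fbln5 had 0 UMIs in 20 cells (E12.5) and 88 UMIs in 83 cells (E15.5), a level at least 2.22-fold higher against a floor of 3 counts in the E12.5 library.

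**Figure D3:**
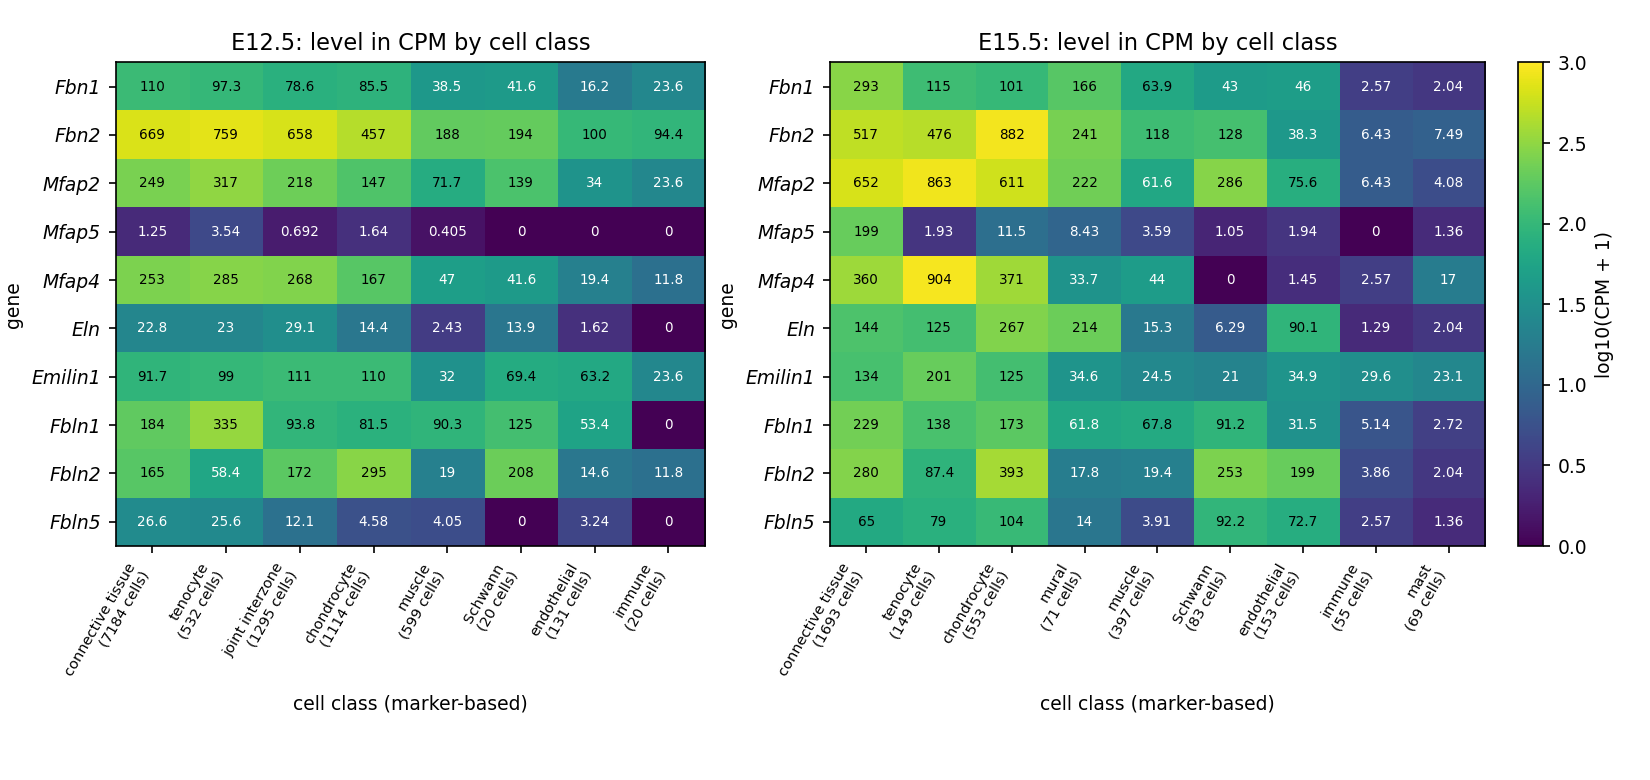
Level of each gene in CPM (printed in the cell) by marker-based class in both libraries, with the number of cells under each class; colour is log10(CPM + 1). Fbn1, Fbn2, Mfap2 and Mfap4 are higher in the connective tissue, tenocyte and chondrocyte columns than in the muscle column at both ages, Mfap5 is high in the E15.5 connective tissue column at 199 CPM, and the immune column at E15.5 is at or under 6.43 CPM apart from Emilin1 at 29.6 CPM.

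Promoter windows are shown for Mfap2 and Fbln5, which were both at least 2-fold higher at E15.5 in 4 or more classes, and for Fbln1, whose direction differed between classes. They come from the RefSeq table and are 250 bases of build GRCm38.p6 that end at a transcript start, on the gene's strand, and capitals mark matches to the motifs searched on both strands. The motifs were the TATA box TATAAA, the GC box GGGCGG, the E-box CANNTG, the AP-1 site TGANTCA, the TEAD site GGAATG and the CCAAT box CCAAT.
Mfap2, chr4:141010174-141010423, plus strand: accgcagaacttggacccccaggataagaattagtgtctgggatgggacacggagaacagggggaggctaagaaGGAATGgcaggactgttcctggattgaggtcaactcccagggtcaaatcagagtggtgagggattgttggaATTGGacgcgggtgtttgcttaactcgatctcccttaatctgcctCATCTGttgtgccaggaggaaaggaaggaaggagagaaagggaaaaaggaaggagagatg
Fbln5, chr12:101819120-101819369, minus strand: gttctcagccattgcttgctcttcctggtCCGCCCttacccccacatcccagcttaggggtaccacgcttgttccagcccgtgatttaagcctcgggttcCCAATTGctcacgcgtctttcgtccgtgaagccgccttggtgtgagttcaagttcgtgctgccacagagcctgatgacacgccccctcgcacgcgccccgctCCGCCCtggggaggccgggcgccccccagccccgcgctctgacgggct
Fbln1, chr15:85205699-85205948, plus strand: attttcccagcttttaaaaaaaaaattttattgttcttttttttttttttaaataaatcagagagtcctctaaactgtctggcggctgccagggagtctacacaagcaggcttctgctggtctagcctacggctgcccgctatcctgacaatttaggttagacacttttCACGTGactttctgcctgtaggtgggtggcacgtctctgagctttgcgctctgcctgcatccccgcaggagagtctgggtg
The Mfap2 window shown, of which 6 bases lie in an annotated exon, held a TEAD site, a CCAAT box and an E-box. The Fbln5 window held 2 GC boxes and a CCAAT box that overlaps an E-box. The Fbln1 window held 1 E-box. Each of the 3 genes had a second window in the table, not shown: that of Mfap2 held 2 GC boxes, that of Fbln1 a GC box and 2 E-boxes, and that of Fbln5 none of these motifs. Among all 32851 windows of this length in the table, 66.2% had an E-box, 33.8% a CCAAT box, 32.7% a GC box, 12.6% a TEAD site, 12.4% a TATA box and 6.75% an AP-1 site. A match describes these letters and is not a binding site. In all, 6 of the 10 genes had a window, with 9 windows between them.

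In the GENCODE vM21 annotation of GRCm38, Fbn1 lies at chr2:125300594-125507993 on the minus strand, Mfap2 at chr4:141010418-141015984, Mfap5 at chr6:122505845-122529290 and Fbln2 at chr6:91212455-91272540 on the plus strand. Eln lies at chr5:134702593-134747323 on the minus strand and Emilin1 at chr5:30913402-30921277 on the plus strand. Fbln1 lies at chr15:85205949-85286535 on the plus strand and Fbln5 at chr12:101746565-101819055 on the minus strand. Mfap4, at chr11:61485431-61488900 on the plus strand, overlaps Mapk7 on the other strand. Fbn1, Fbn2 and Eln also overlap a gene on the other strand (Gm9913, Gm26507 and Gm30003). None of the 10 overlapped another gene on its own strand.

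The other classes differed in how many of the 10 genes passed 2-fold. In tenocyte-like cells, 5 were at least 2-fold higher at E15.5 (Mfap2, Mfap4, Eln, Emilin1 and Fbln5) and Fbln1 was at least 2-fold lower, of 9 with at least 20 UMIs, beside 8.21% and 27.1% of all genes. With at least 1000 genes required per cell, the Emilin1 ratio was 0.14 in place of 1.02 and the Fbln5 ratio 0.67 in place of 1.62. In chondrocyte-like cells, 6 of 10 were at least 2-fold higher (Mfap2, Mfap5, Mfap4, Eln, Fbln1 and Fbln5), beside 10.6% of all genes, and none was 2-fold lower, beside 14.2%. In male cells alone the Mfap5 ratio of this class was -2.73. In endothelial-like cells, 5 of 8 were at least 2-fold higher (Fbn1, Mfap2, Eln, Fbln2 and Fbln5) and Fbn2 was at least 2-fold lower, beside 6.99% and 12.2%. The E12.5 Fbn2 level of endothelial-like cells, 100 CPM, was close to the 94.4 CPM of immune-like cells. In male cells alone the Fbn1 ratio there was -1.88 in place of 1.51 and the Mfap2 ratio 0.057 in place of 1.15. After thinning to 2000 UMIs, the share of endothelial-like cells with an Mfap2 UMI differed by 0.70 points (-6.56 to 7.71). In muscle-like cells, 2 of 10 were at least 2-fold higher, Mfap5 (1 and 22 UMIs, a log2 ratio of 3.15 with an interval of 0.52 to 8.51) and Eln (6 and 94 UMIs), beside 4.76% of all genes, and none was 2-fold lower, beside 18.9%. In Schwann-like cells, 2 of 7 were at least 2-fold higher, Mfap2 and Fbln5, and Emilin1 was at least 2-fold lower, beside 19.9% and 13.5%. The Mfap2 ratio of 1.04 ran from 0.80 to 1.11 over its alternatives, and the Emilin1 interval (5 and 20 UMIs) of -3.18 to 0.043 includes no difference.

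Chondrocyte-like cells had the largest Fbln5 and Eln ratios of the mesenchymal classes. Their Fbln5 level was 4.58 CPM (E12.5) and 104 CPM (E15.5), a log2 ratio of 4.50 (3.74 to 5.38), and the Eln log2 ratio was 4.21 (3.78 to 4.68). Their Fbn2 level was 457 CPM and 882 CPM, a log2 ratio of 0.95 (0.86 to 1.04). Different clusters held the class at the 2 ages. At E12.5 cluster 3, led by Matn1, Hapln1 and Acan, held 924 of the 1114 cells. At E15.5 cluster 2, led by Mia, Dkk3 and Mecom and also high in Gdf5, held 361 of the 553 cells, and cluster 12, led by Col2a1, Matn1 and Col9a1, held 91. In cluster 12 the levels at E15.5 were 63.6 CPM for Fbln5, 158 CPM for Eln and 563 CPM for Fbn2, while cluster 2 had 122 CPM, 310 CPM and 972 CPM. With both libraries clustered together the Fbn2 ratio in this class was -0.41, that of Mfap4 -2.0 and that of Fbln1 -0.63, so that the class's Fbn2, Mfap4 and Fbln1 directions depended on the clustering. The Mfap2 ratio was then 0.39 in place of 2.06, and the Eln and Fbln5 ratios were 2.99 and 1.92.

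Muscle-like cells carried both fibrillins at low levels. The Fbn1 level was 38.5 CPM (E12.5) and 63.9 CPM (E15.5), a log2 ratio of 0.73 (0.41 to 1.07), and the Fbn2 level was 188 CPM and 118 CPM, a log2 ratio of -0.68 (-0.85 to -0.51). At E15.5 the 2 clusters of Pax7 and Msc cells, numbered 6 and 7 and resembling muscle progenitors by those genes, had Fbn1 levels of 76.4 and 70.2 CPM. The differentiated cluster 14, led by Mylpf, Myl1 and Tnnc2, had 30.1 CPM. Fbln1 followed the same order, with 80.1, 82.1 and 17.8 CPM. Mfap4 ran the other way, with 27.9, 30.5 and 98.8 CPM.

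Within the E15.5 connective tissue-like cells the genes marked out different clusters. Clusters were built without the 10 genes, so that these differences did not enter the clustering through them. Cluster 21 (53 cells, led by Spink6, Anxa8 and Pi16) and cluster 8 (134 cells, led by Dpt, Igfbp6 and Ly6a) had the highest Fbn1 levels, 794 and 753 CPM, and the highest Mfap5 levels, 693 and 492 CPM. Cluster 16 (82 cells, led by Twist2, Stmn2 and Irx1) had the lowest, 93.1 CPM for Fbn1 and 3.04 CPM (3 UMIs) for Mfap5. Mfap5 thus covered a 228-fold range over the 8 clusters, Fbn1 8.52-fold and Eln 8.09-fold, while Fbln1 and Mfap2 covered 1.71-fold and 1.81-fold.

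Cluster 0 (629 cells, led by Fst, Sfrp4 and Clec3b) had the highest Mfap4 level of the 8 at 610 CPM, against 302 CPM in the next, cluster 17. It also had an Mfap2 level of 844 CPM, close to the 847 CPM of cluster 13, and an Eln level of 235 CPM. The highest Eln level was in cluster 21 at 378 CPM. Cluster 1 (401 cells, led by Aldh1a3, Ngfr and Nppc) had the lowest Eln, Fbn2 and Fbln2 levels, 46.7, 357 and 124 CPM, and the highest Emilin1 level, 169 CPM. Cluster 21 had the lowest Emilin1 level, 50.4 CPM, beside the highest Eln level.

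**Figure D4:**
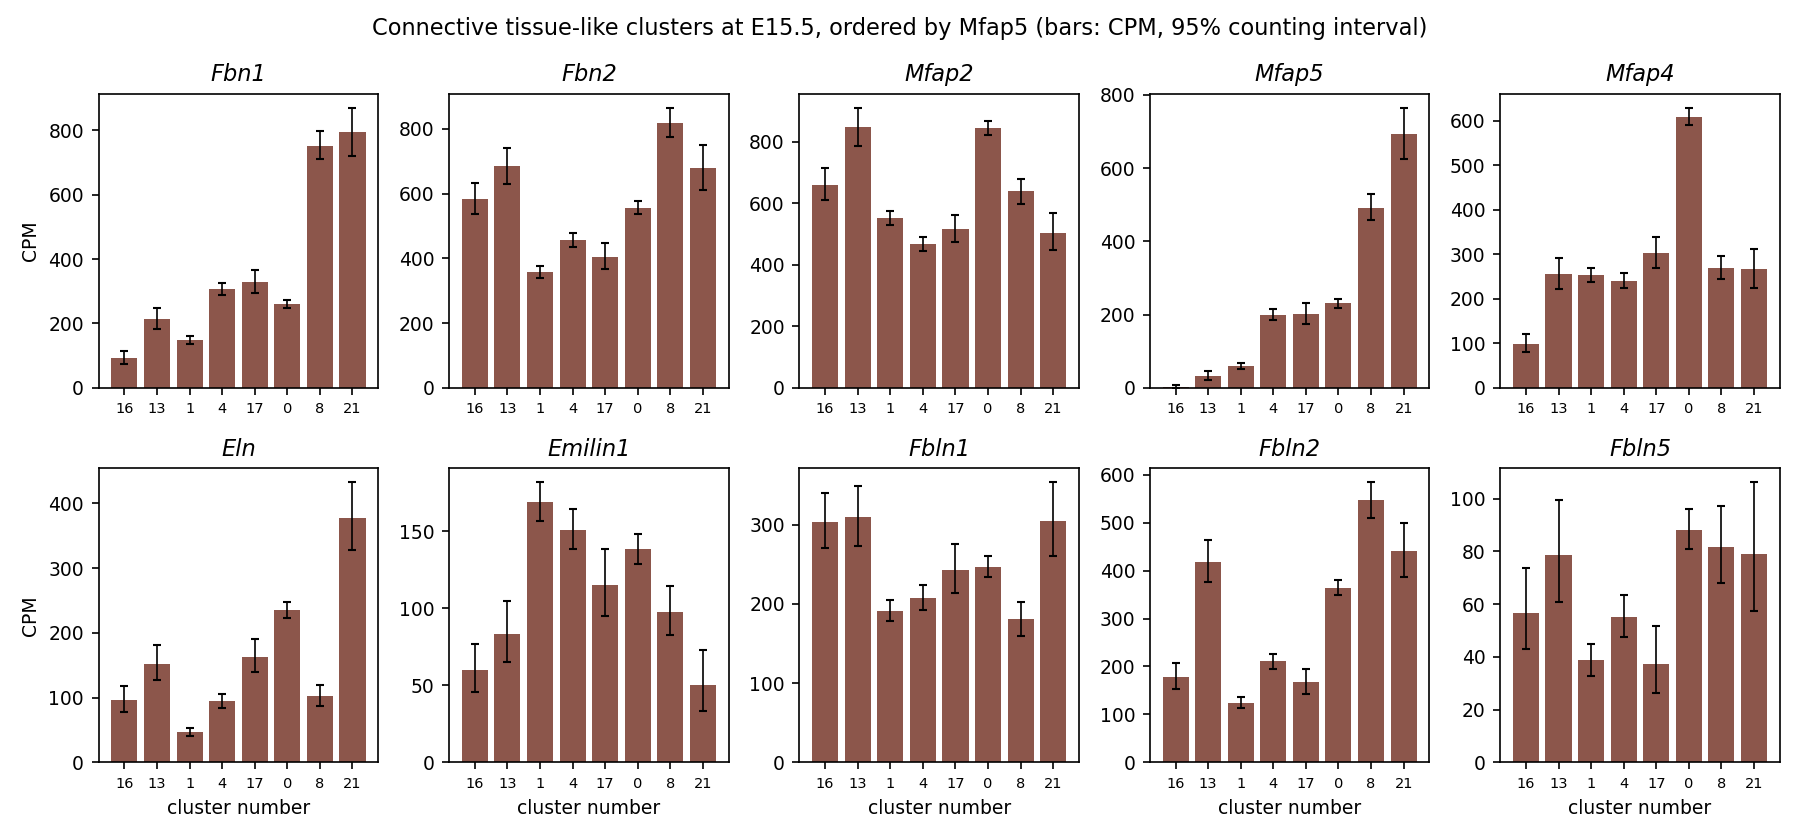
Level in CPM of each gene in the 8 connective tissue-like clusters at E15.5, ordered by Mfap5 from left to right; bars are levels of 1 library and whiskers are 95% counting intervals. Clusters 8 and 21 stand out for Fbn1 and Mfap5, cluster 0 for Mfap4 at 610 CPM and cluster 21 for Eln at 378 CPM.

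Over the 14 connective tissue-like clusters at E12.5, Fbn1, Fbn2, Eln, Mfap4 and Fbln2 covered narrower ranges than at E15.5, and Fbln1, Fbln5, Emilin1 and Mfap2 wider ones. Fbn1 covered a 2.18-fold range and Fbn2 a 2.08-fold range, from 480 CPM in cluster 6 to 997 CPM in cluster 21. The widest ranges there were those of Fbln5, 6.07-fold from 6.86 to 41.6 CPM (2.36-fold at E15.5), and Fbln1, 5.44-fold from 70.0 CPM in cluster 10 to 380 CPM in cluster 16. Fbln1 was high in clusters 4 and 16, both led by Calb2, with 351 and 380 CPM. The same 2 clusters had the highest Fbn1 shares of the fibrillin UMIs at that age, 21.2% and 21.0%. The lowest Fbln5 level, 6.86 CPM, was in E12.5 cluster 14, which had 583424 UMIs of all genes, so that it rests on few Fbln5 UMIs. Between the ages the number of clusters differed, and so did the median depth, 2269 and 10011 UMIs per cell. The ranges were not adjusted for this.

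Across clusters the genes tracked each other to differing degrees, as a description over points that share a library and differ in depth and cell number. Over the 14 E12.5 connective tissue-like clusters, Pearson's r of log2 levels was 0.91 for Fbn2 and Mfap4, 0.50 for Fbn1 and Mfap5, -0.20 for Fbln2 and Fbln5 and -0.75 for Emilin1 and Fbln1. Over the 8 E15.5 clusters it was 0.93 for Fbn1 and Mfap5, 0.92 for Fbln2 and Fbln5, -0.054 for Fbn2 and Mfap4 and -0.74 for Emilin1 and Fbln1. Mfap5 had only 22 UMIs over the 14 E12.5 clusters together. The E12.5 value for Fbn1 and Mfap5 thus rests on few counts, and the ages are not compared for this pair. The genes whose levels over all 58 clusters of both libraries were most like Mfap5 were Clec3b (r = 0.95), Scara5 (0.92), Ccn3 (0.91), Tnxb (0.89) and Medag (0.88), among 9413 genes that reached 50 CPM in a cluster. For Fbn2 they were Fzd2 (0.92), Fstl1, Cdh11 and Gpc3 (0.91 each) and Mmp16 (0.90). Because clusters of both libraries were pooled, these r values mix the difference between libraries with that between clusters. Clec3b, for example, had 0.283 CPM (E12.5) and 146 CPM (E15.5) in connective tissue-like cells.

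To compare single cells at 1 depth, each cell was thinned to 2000 UMIs, which left out 2778 connective tissue-like cells (E12.5) and 2 (E15.5). After thinning, the share of cells with an Mfap5 UMI was 0.250% (E12.5) and 21.5% (E15.5), and without thinning 0.292% and 43.9%. For Eln the thinned shares were 4.49% and 20.3%, and the unthinned ones 5.19% and 54.3%. For Fbn1 the thinned shares were 19.2% and 36.0% (unthinned 21.9% and 79.3%), and for Mfap2 37.7% and 70.0% (unthinned 43.6% and 98.6%). For Fbn2 the thinned share was lower at E15.5, 68.4% and 58.4%, as its CPM was; the unthinned shares of 70.6% and 93.4% go against the CPM and are not read.

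For the remaining 5 genes, thinned shares were 37.4% and 43.8% for Mfap4, 16.0% and 21.6% for Emilin1, 29.2% and 33.7% for Fbln1, 26.3% and 34.4% for Fbln2 and 5.31% and 11.6% for Fbln5. Unthinned, they were 43.2% and 82.6%, 19.4% and 67.2%, 31.0% and 78.4%, 29.8% and 73.4%, and 5.93% and 40.4%. At 2000 UMIs a connective tissue-like cell showed UMIs of 2.44 ± 1.26 (SD over 4406 cells) of the 10 genes (E12.5) and 3.51 ± 1.68 (1691 cells) (E15.5).

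Immune-like cells, which should lack most of these genes, measured the free RNA of the droplets. Of 19 thinned immune-like cells at E12.5, 1 had an Emilin1 UMI and 1 an Fbln2 UMI, and 0 had a UMI of the other 8 genes, which allows shares of up to 15.8%. Without thinning, 4 of 20 had an Fbn2 UMI and 0 had an Mfap5, Eln, Fbln1 or Fbln5 UMI. Of 55 at E15.5, 0 had an Mfap5, Eln, Fbn1, Fbn2, Mfap4 or Fbln2 UMI, which allows up to 5.45%. Without thinning, Emilin1 UMIs were in 30.9% of these 55 cells, and those of the other 9 genes in 0% to 9.09%. The median depths before thinning were 4315 and 13215 UMIs in immune-like and 2269 and 10011 UMIs in connective tissue-like cells. The Mfap5 and Eln shares of connective tissue-like cells at E12.5, and the Fbln5 share, lay under the limit that these 19 cells allow, so that free RNA could not be told apart there. Emilin1 and Fbln2, each with a UMI in 1 of the 19 cells, have no such limit and were not set against it. Nor were Mfap2, Emilin1, Fbln1 and Fbln5 at E15.5, which had UMIs in thinned immune-like cells. The 18 erythroid-like cells at E15.5 went against this picture, with levels from 22.0 CPM for Fbln5 to 344 CPM for Mfap4 and a thinned Fbn2 share of 44.4%. The part of RNA from other cells in those droplets was not tested.

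Cells with an Mfap5 UMI at E15.5 more often held UMIs of some, but not all, of the other genes. Among thinned connective tissue-like cells, 50.8% of the 364 cells with an Mfap5 UMI also had an Fbn1 UMI, against 32.0% of the 1327 without, a difference of 18.9 points (13.2 to 24.5). For Fbln2 the shares were 47.3% and 30.9%, a difference of 16.4 points (10.7 to 22.0), and for Eln 23.9% and 19.4%, a difference of 4.53 points whose interval of -0.12 to 9.60 includes 0. For Mfap2 they were 75.3% and 68.5%, a difference of 6.77 points (1.49 to 11.6). Of the 344 cells with an Eln UMI, 61.3% had an Mfap4 UMI, against 39.3% of the 1347 without, 79.7% against 67.5% had an Mfap2 UMI, and 41.0% against 32.7% an Fbln2 UMI. In single cells Fbn1 and Mfap4 went apart, with an Mfap4 UMI in 39.7% of the 609 cells with Fbn1 and in 46.0% of the 1082 without. The difference was -6.29 points (-11.1 to -1.37). Over the 8 E15.5 connective tissue-like clusters, Pearson's r of their levels had the other sign, at 0.42. Cells of 1 library are not replicates, and these intervals cover counting error only.

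A list of 33 further genes of the elastic fibre and microfibril pathway gave the surroundings of these 10. In connective tissue-like cells 31 had at least 20 UMIs, of which 9 were at least 2-fold higher at E15.5 and 7 at least 2-fold lower, with a median log2 ratio of 0.35. Over all genes 10.7% were higher and 24.4% lower by that rule. Relative to the median gene the counts were 13 and 4, beside 16.5% and 15.2% of all genes. Loxl4 (15 UMIs in both libraries together) and Mmrn1 (0 UMIs) fell under the minimum.

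Among the crosslinking enzymes, which join tropoelastin molecules, Lox had 63.7 CPM (E12.5) and 174 CPM (E15.5), a log2 ratio of 1.45, and Loxl1 23.7 CPM and 87.5 CPM, a log2 ratio of 1.88. Loxl2 and Loxl3 were under 2-fold, with log2 ratios of 0.35 and 0.053. Of the latent TGF-beta binding proteins, Ltbp2 (1.19 CPM and 4.98 CPM) and Ltbp4 (13.8 CPM and 38.5 CPM) were at least 2-fold higher, with log2 ratios of 2.07 and 1.47, and Ltbp1 had 80.6 CPM and 79.1 CPM. Emilin2, a relative of Emilin1, had 20.6 CPM and 102 CPM, a log2 ratio of 2.32. Its relative Mmrn2 had 6.80 CPM and 1.90 CPM, a log2 ratio of -1.84.

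The ADAMTS family, whose members include microfibril-associated proteins, split: Adamtsl5 (5 and 128 UMIs) and Adamtsl4 (19 and 58 UMIs) had log2 ratios of 4.61 and 1.54, and Adamts6 had 32.9 CPM and 8.56 CPM, a log2 ratio of -1.94. Over the 8 family members 2 were at least 2-fold higher and 3 at least 2-fold lower. Hmcn1, a large fibulin relative found in basement membranes, had 176 CPM (E12.5) and 47.2 CPM (E15.5), a log2 ratio of -1.90. Of the integrin subunits, Itgb3 (16 and 136 UMIs) had a log2 ratio of 3.02 and Itgb8 (654 and 91 UMIs) one of -2.91. The integrins of these subunits bind latent TGF-beta among other ligands. None of the 3 TGF-beta ligand genes was at least 2-fold higher, and 1 was at least 2-fold lower.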

How the data were processed

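UMI counts per gene and cell were deposited by the authors as 10x-style matrices, per the file headers, 1 for each age. Cell Ranger 4.0.0, Seurat 4.3.0 and the mm10 build are named in the submitters' processing notes. The annotation settings and earlier cell filters are not given in the sources used here. Of 32285 gene identifiers, 32158 matched GENCODE vM21.

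Kept cells had 500 or more genes with a UMI and less than 10% of UMIs from mitochondrial genes. These limits were failed by 604 and 166 barcodes at E12.5 and by 1376 and 644 at E15.5, where some barcodes failed both. Doublets were scored against 2 simulated doublets per cell, and the highest scoring 0.8% per 1000 cells were removed (1270 cells, 10.3%, and 190 cells, 4.63%). Each library was clustered alone with the Leiden method (2000 variable genes, 30 principal components, 15 neighbours, resolution 1, seed 0, scaled values limited to 10). The 10 genes, the pathway list, 25 proliferation genes, 4 Y-linked genes and Xist were left out of the variable genes. A cluster took a class name when 3 or more of the class's markers lay at least 2-fold above the other cells and occurred in 10% or more of its cells. In addition, 1 or more had to be among its 10 leading genes, ranked by fold over the other cells with 10 CPM added. Otherwise, 5 or more connective tissue markers gave that name. These had to lie at least 2-fold above the pooled muscle, endothelial, mural, immune, mast, erythroid, Schwann, epithelial and melanocyte clusters. This naming rule was set after the clusters were seen. The members and all lists were chosen with earlier results of these data known. Cells with Y-linked UMIs and no Xist were called male (1713 and 696), and those with Xist and no Y-linked UMI female (5785 and 2616).

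UMIs were summed per class and library and scaled to CPM. With 1 library per age there is no test: 2-fold was the size rule, 20 UMIs over both libraries the minimum, and 3 counts the floor for a count of 0. Intervals are 95% and exact for counts, ratios and single shares, and Newcombe's for differences of shares, and they cover counting error only. For single-cell shares each cell was thinned to 2000 UMIs. Genes named were all 10 members, up to 12 of the 33 pathway genes by the size of their ratio beside counts for the list, and the 5 genes most like the members of highest and lowest ratio. Further pathway genes were named to complete a family, after their values were seen. The alternatives were other scalings, cell filters, clusterings, classes, weights of cells, sexes and thinning depths. The calculations were tested on simulated data. Clustering used leidenalg 0.10.2 with igraph 0.11.9 and scikit-learn 1.9.0, run in Python 3.11.15 with pandas 2.3.3, scipy 1.17.1 and numpy 2.4.6. Figures were drawn with matplotlib 3.10.9.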

Additional observations from a re-analysis of the deposited data

Results flagged for a closer look

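Some genes had log2 ratios (E15.5 over E12.5) of opposite sign in different classes, differences that were not tested. Fbn2 had a ratio of 0.95 in chondrocyte-like cells and -1.39 in endothelial-like cells, whose E12.5 level was close to that of immune-like cells. Emilin1 had 1.02 in tenocyte-like cells and -0.86 in endothelial-like cells. Fbln1 had 1.09 in chondrocyte-like cells and -1.28 in tenocyte-like cells, and both Fbln1 values changed sign under another clustering or cell filter. The chondrocyte-like Fbn2 ratio was -0.41 with both libraries clustered together.

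The highest Fbn2 level of any E15.5 cluster lay outside the named classes: 2063 CPM (463 UMIs) in unnamed cluster 19, against 972 CPM in cluster 2. Cluster 19 held 69 cells with a median of 2742 UMIs, beside 9297 UMIs over all kept cells, and was led by Gm26917, B830012L14Rik and A330076H08Rik.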

How the results depend on the processing

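In connective tissue-like cells the counts of 5 genes at least 2-fold higher and 0 lower stayed within 1.5 times their values in each alternative run. Over 16 alternatives, 9 of the 10 log2 ratios had the same direction in all, and Fbn2 in 15, being 0.0046 relative to the median gene. The difference in Fbn1 share of 22.0 points was 19.4 with at least 1000 genes per cell, 20.4 with all deposited barcodes, 19.7 at resolution 0.5, 20.1 with 4000 variable genes and 18.4 with both libraries clustered together. It was 20.9 with the 10 genes and the pathway list among the variable genes, 18.2 with unnamed clusters joined and 14.7 in all kept cells. It was 14.0 with connective tissue, tenocyte, joint interzone, chondrocyte and unnamed cells together, an alternative chosen after seeing the data. Log2 ratios in smaller classes changed sign. Fbln1 in tenocyte-like cells was 1.12 with at least 1000 genes per cell and 0.95 with 4000 variable genes. In chondrocyte-like cells Mfap4 was -0.67 at resolution 0.5 and -2.0 clustered together, Fbln1 was -0.72 and -0.63, and Mfap5 was -2.73 in male cells. Fbn1 in endothelial-like cells was -1.88 in male cells. The cause was not tested. No paired analysis was possible because there was 1 library per age, and no library could be left out.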

Other observations

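An unnamed E15.5 cluster of 323 cells, cluster 3, led by Nefm, Tac1 and Sfrp2, held several elastic fibre genes at high levels. Its levels were 868 CPM for Mfap2, 839 CPM for Fbn2, 305 CPM for Fbln1, 288 CPM for Eln and 134 CPM for Fbln5. That Fbln5 level was the highest of any E15.5 cluster of at least 20 cells. Among the connective tissue, tenocyte and chondrocyte classes at E15.5, the highest levels were 863 CPM for Mfap2, 882 CPM for Fbn2 and 229 CPM for Fbln1. For Eln and Fbln5 they were 267 CPM and 104 CPM. The Fbn1 level of cluster 3 was 127 CPM, below the 293 CPM of connective tissue-like cells.

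Joint interzone-like cells, from the region where limb joints form, were a class named only at E12.5 (1295 cells), while Gdf5 was among the leading genes of E15.5 cluster 2 and Sfrp2 of cluster 3. Their levels at E12.5 were 658 CPM for Fbn2, 111 CPM for Emilin1 and 29.1 CPM for Eln. Mural-like cells at E15.5 had 166 CPM for Fbn1, 241 CPM for Fbn2 and 222 CPM for Mfap2 beside their Eln level of 214 CPM.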
